A study of Mus musculus with 208 samples.

Results

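The BXD/TyJ strains are an older set of recombinant inbred mice of the Hybrid Mouse Diversity Panel, bred to homozygosity from crosses of C57BL/6J and DBA/2J so that each line carries its own mosaic of the genomes of these parents. The arrays described here were all those whose strain label began with BXD and ended in TyJ, with or without a hyphen, which made 32 of the 208 arrays of the series and 16 of its 99 strains. There were 16 arrays of untreated hearts and 16 of hearts exposed to isoproterenol (ISO), an agonist of all β-adrenergic receptors. Both groups were left ventricles of female mice, and the study's methods describe pooled biological replicates, with the number of mice behind an array not given in the labels. The labels put the start of treatment at 8 to 9 weeks of age and its length at 3 weeks, and they also describe the tissue as being from an age of 10 weeks. The ISO dose was 30 µg per g body weight per day in the sample labels and 20 µg per g per day in the series' design text. It was delivered by a minipump implanted in the abdomen. The controls were labelled untreated, and a pump without drug is not mentioned in the labels.

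Of the 16 strains, 11 had both a control and an ISO array. These were BXD-5/TyJ, BXD-11/TyJ, BXD-12/TyJ, BXD-14/TyJ, BXD-20/TyJ, BXD21/TyJ, BXD-24/TyJ, BXD-32/TyJ, BXD-38/TyJ, BXD-39/TyJ and BXD-40/TyJ. BXD-1/TyJ and BXD-34/TyJ had control arrays alone, and BXD-6/TyJ, BXD-19/TyJ and BXD-31/TyJ had ISO arrays alone, so these 5 strains entered no comparison between the groups. Arrays of 1 strain and treatment were averaged, and the response of a strain was the log2 level in ISO hearts minus that in control hearts. The comparison asks which transcripts of the ventricle moved with chronic β-adrenergic stimulation across genetically different strains, with the strain as the replicate.

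Isoproterenol binds the β-adrenergic receptors of cardiomyocytes, which couple through the stimulatory G protein to adenylyl cyclase. Cyclic AMP made there activates protein kinase A, which phosphorylates calcium handling proteins and raises the force and rate of contraction, and phosphodiesterases, receptor kinases and arrestins damp the signal. Kept up for weeks, the stimulus is known to enlarge cardiomyocytes, to activate fibroblasts that lay down collagen, and to draw macrophages into the ventricle.

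The 32 arrays were similar in brightness. Median raw intensity ranged from 102.6 to 171.8 (median 128) in the control arrays and from 113.5 to 156.9 (median 130) in the ISO arrays, and between 40.16% and 48.91% of probes were detected at p under 0.05 on each array. The arrays lay on 8 of the 26 BeadChips, the glass slides that hold several arrays each, and 13 control and ISO pairs shared a BeadChip. In all 13 the control array lay in position A, C, E or G of the BeadChip and the ISO array in position B, D, F or H, so position and treatment cannot be told apart. Cardiomyocyte markers were present as the tissue label implies: all 9 measured of 10 were detected, and their mean level was between 12.64 and 13.37 in every strain and group. Myh6, the main myosin heavy chain of the adult mouse ventricle, lay between 14.68 and 14.99 in all 22 strain averages, near the top of the log2 scale.

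Whether arrays with 1 strain label came from 1 genotype was examined with transcripts that have 2 levels among BXD strains. In the BXD/RwwJ arrays of the series alone, 99 probes fell into a low and a high class with a gap of at least 1 log2 unit, at least 8 arrays on each side, and the same class in control and ISO hearts of a strain in all but 1 of its 22 pairs at most. From arrays of other BXD labels each BXD/TyJ array differed at a median of 41 to 50 of these probes, and its nearest such array differed at 5 to 33. Control and ISO arrays on the same BeadChip differed at 0 to 4 of the 99 probes in 9 of the 13 pairs. BXD-40/TyJ on BeadChip 4 differed at 15, BXD-20/TyJ at 34, BXD-38/TyJ at 42 and BXD-5/TyJ at 44.

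For BXD-20/TyJ, BXD-38/TyJ and BXD-5/TyJ an array of another label was thus nearer than the array of the same label. Sspn, which encodes a membrane protein of the dystrophin complex, measured 4.34 in the control and 12.84 in the ISO heart labelled BXD-38/TyJ, against 4.67 and 4.70 in BXD-14/TyJ and 13.25 and 13.17 in BXD-20/TyJ. H2-Ea, an MHC class II chain that some strains do not make, measured 10.92 and 4.56 in the control and ISO hearts labelled BXD-20/TyJ. The control array labelled BXD-38/TyJ differed from the control of BXD-14/TyJ at only 5 of the 99 probes and from its own ISO partner at 42. The BXD/RwwJ pairs give no independent benchmark, since the probes were selected for agreement within them.

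Arrays of 1 label on different BeadChips also differed. The 3 strains with repeats are spelled without a hyphen on BeadChip 4 (BXD32/TyJ, BXD39/TyJ, BXD40/TyJ) and with one on BeadChips 15 and 25, and they were averaged as 1 strain each. For BXD-32/TyJ the repeats differed at 47 probes in control and 48 in ISO hearts, for BXD-40/TyJ at 31 and 42, and for the controls of BXD-39/TyJ at 45. Sspn was at 13.14 and 13.50 in control and ISO hearts of BXD-32/TyJ on BeadChip 4 and at 4.52 and 4.51 on BeadChip 15. Results are therefore given over the 11 strains as labelled and, beside them, over the 9 pairs on 1 BeadChip that differed at 9 probes or fewer, called agreeing pairs below. These 9 pairs carry 8 strain labels, with BXD-32/TyJ present as a pair on each of its BeadChips. The cutoff of 9 was chosen after the values were seen.

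**Figure D1:**
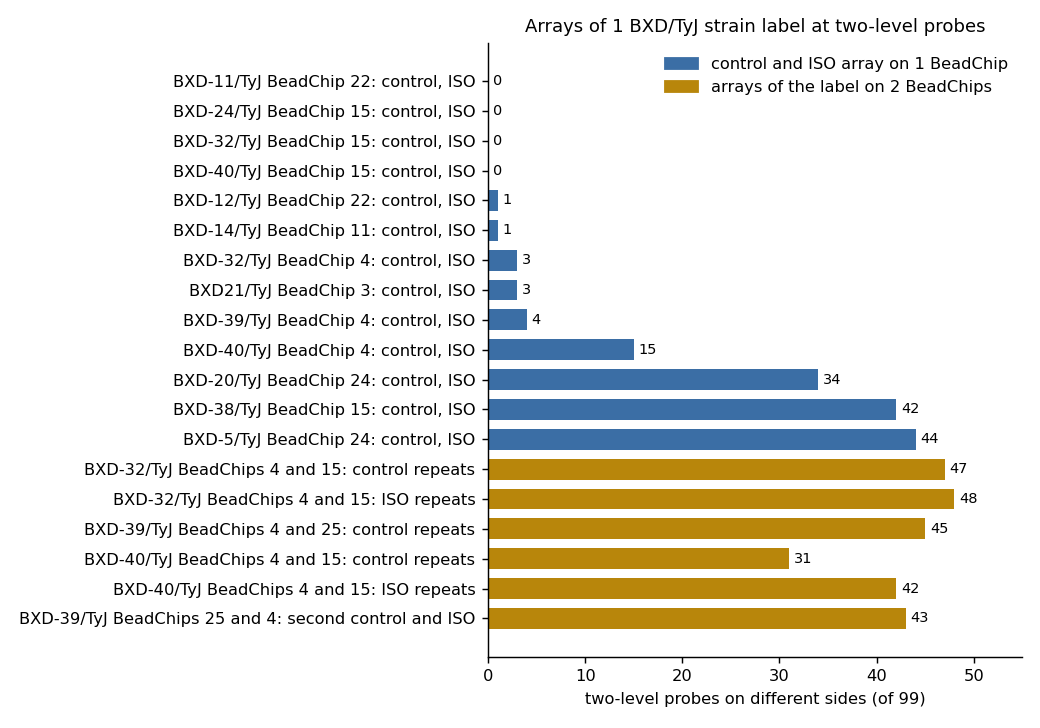
Number of the 99 two-level probes on different sides between arrays that carry 1 BXD/TyJ strain label (horizontal axis), for control and ISO arrays on 1 BeadChip (blue) and for arrays on different BeadChips (gold). The 9 agreeing pairs sit at 0 to 4, and the 6 comparisons across BeadChips at 31 to 48.

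Across the 11 strains, 38 probes were higher and 38 lower in ISO hearts at an adjusted p under 0.05 and a change above 0.2 log2 units, which is a rise of 14.9% (limma, strain as block, Benjamini-Hochberg adjustment over 25697 probes). That is 0.148% of the probes tested in each direction, and 4033 probes had an unadjusted p under 0.05. The smallest adjusted p was 0.00948. Of the probes called, 26 of the 38 higher and 31 of the 38 lower moved the same way in all 11 strains and the control and ISO levels of the strains overlapped for every one of them. Over the 9 agreeing pairs the same fit called 66 probes higher (0.257%) and 30 lower (0.117%), with a smallest adjusted p of 1.99e-05. The fits shared 20 higher probes, which are 52.6% of the first set and 30.3% of the second, and 10 lower probes, which are 26.3% and 33.3%. All 76 probes called over 11 strains kept their direction in the agreeing pairs, which are partly the same arrays. The 11-strain count rested on few strains: without BXD-40/TyJ it fell to 7, without BXD-32/TyJ to 8 and without BXD-14/TyJ to 9, and without BXD-20/TyJ it was 169.

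The largest response among the genes named by the selection rule was in the matrix. Timp1, a secreted inhibitor of matrix metalloproteinases, had a log2 level of 5.92 at the lowest, 7.71 at the median and 10.39 at the highest in control hearts of the 11 strains, against 7.48, 9.62 and 10.98 in ISO hearts. The control heart of BXD-5/TyJ, at 10.39, was higher than every ISO heart except that of BXD21/TyJ, so the groups overlapped. Timp1 rose by 1.71 log2 units (SE 0.29, 3.26-fold, adjusted p = 0.0339) and was higher in 9 of 11 strains. It was not higher in BXD-20/TyJ (-0.23) and BXD-5/TyJ (-0.04), which both lie on BeadChip 24 and differ at the two-level transcripts. The other pairs that differ there rose, BXD-38/TyJ by 2.21 and BXD-40/TyJ on BeadChip 4 by 3.56. The part of strain label or BeadChip was not tested. Among strain averages BXD-40/TyJ had the widest difference at 3.23. Over the agreeing pairs the rise was 2.06 (SE 0.18, adjusted p = 0.00202), between 1.10 and 2.89 in the single pairs. A second Timp1 probe gave 1.69 over the 11 strains with an adjusted p of 0.0498.

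The promoter of Timp1 is shown because cyclic AMP acts on transcription through the CREB protein, which binds the response element TGACGTCA or its core TGACG, and Timp1 had the widest response of the genes named by the rule. The RefSeq window of GRCm38.p6, chrX:20869916-20870215 on the plus strand, covers the annotated start and the bases on either side of it, and its core, in capitals, begins 84 bases before that start.
Timp1: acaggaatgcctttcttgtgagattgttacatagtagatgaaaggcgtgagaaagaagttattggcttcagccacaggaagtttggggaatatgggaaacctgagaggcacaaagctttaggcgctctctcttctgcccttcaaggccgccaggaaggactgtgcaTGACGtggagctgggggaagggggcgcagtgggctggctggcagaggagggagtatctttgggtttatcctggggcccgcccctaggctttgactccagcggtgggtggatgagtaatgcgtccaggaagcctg
Pdlim3 encodes a Z-disc protein with a LIM domain. It is shown as 1 of the 4 genes called higher in the agreeing pairs whose windows hold the whole element, so its match follows from that choice. Its window at chr8:45885237-45885536 on the plus strand has the element in capitals, beginning 48 bases before the start.
Pdlim3: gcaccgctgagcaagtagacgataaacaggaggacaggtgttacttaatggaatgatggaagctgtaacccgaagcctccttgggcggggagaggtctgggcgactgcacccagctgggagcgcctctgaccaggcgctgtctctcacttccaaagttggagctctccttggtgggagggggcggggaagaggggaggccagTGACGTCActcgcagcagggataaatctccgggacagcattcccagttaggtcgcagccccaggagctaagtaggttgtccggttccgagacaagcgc
Both strands were searched, and the core lies within the whole element. The core was present in 8 of 28 genes with a window called higher over the 11 strains (28.6%), in 10 of 32 called lower (31.2%) and in 23% of 27025 genes with a window. Among genes called in the agreeing pairs it was present in 12 of 44 higher (27.3%) and 12 of 25 lower (48%). The whole element was present in 1 of 28 higher and 0 of 32 lower genes over the 11 strains and in 4 of 44 higher and 0 of 25 lower genes over the agreeing pairs, against 2.03% of all genes with a window. A match to these letters is a description of the window and no evidence of binding. Pdlim3 itself went from 10.02 at the median in control hearts to 10.79 in ISO hearts, a difference of 0.55 (adjusted p = 0.0951) over 11 strains, with BXD-20/TyJ lowest at -0.58. It rose by 0.74 (SE 0.11, adjusted p = 0.0219) in all 9 agreeing pairs.

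Of the other named rises Tmem100 and Ctnnal1 were the widest. Ctnnal1, a catenin-like scaffold protein of the cell cortex, ranged from 9.82 through a median of 10.34 to 11.38 in control hearts and from 10.54 through 11.54 to 12.15 in ISO hearts. It rose by 1.14 (SE 0.14, adjusted p = 0.0117) and was higher in 10 strains, with BXD-20/TyJ at -0.02, and by 1.42 (adjusted p = 0.000181) over the agreeing pairs. Tmem100, a membrane protein of endothelium known to respond to BMP signaling, lay between 7.83 and 10.32 in control hearts and between 8.51 and 11.98 in ISO hearts. It rose by 1.26 (SE 0.23, adjusted p = 0.0498) and was higher in all 11 strains, from 0.34 in BXD-39/TyJ to 3.30 in BXD-5/TyJ.

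Socs3, which blocks JAK and STAT3 signaling by cytokine receptors, was at 6.59, 6.97 and 8.15 (lowest, median and highest) in control hearts and at 7.30, 7.78 and 9.44 in ISO hearts. It rose in all 11 strains by a mean of 0.96 (SE 0.14, adjusted p = 0.022), least in BXD-38/TyJ (0.48) and most in BXD-14/TyJ (2.19). Phkg1, the catalytic subunit of muscle phosphorylase kinase, which starts glycogen breakdown, rose by 0.88 (SE 0.16, adjusted p = 0.0436), and Nudt4, a hydrolase of inositol pyrophosphates, by 0.94 (adjusted p = 0.0413), each in 10 of 11 strains with BXD-20/TyJ as the exception. Fhl1, a LIM protein of the sarcomere that is known to increase in hypertrophy, was at medians of 12.38 and 13.20 in control and ISO hearts and rose by 0.85 (SE 0.16, adjusted p = 0.0498). Sync, an intermediate filament protein of striated muscle, rose by 0.77 (SE 0.09, adjusted p = 0.0102) in all 11 strains.

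The remaining rises named by the rule were Snrpn (0.91), a splicing protein of an imprinted locus, Chac1 (0.87), an enzyme that breaks down glutathione, Tspan17 (0.80), a tetraspanin, and St6galnac6 (1.01), a sialyltransferase. All 4 were higher in 11 of 11 strain averages with adjusted p between 0.0102 and 0.0339. Some averages cover unlike repeats. In BXD-32/TyJ St6galnac6 was at 2.88 on BeadChip 4 and -0.29 on BeadChip 15, and Tspan17 at 2.74 and 0.07. In BXD-40/TyJ Tspan17 was at 2.09 and 0.17 on these BeadChips. Snrpn and Chac1 were higher in every single pair. St6galnac6 and Tspan17 did not pass over the agreeing pairs (adjusted p = 0.183 and 0.188), although their mean differences there were 1.01 and 0.98. For 7 of these 12 rises the strain with the lowest difference was BXD-20/TyJ. A RIKEN clone outside the rule, 2610028H24Rik, was named after its values were seen because its mean difference of 2.07 (SE 0.33, adjusted p = 0.0314) was the widest of all probes called. It was detected on 6.25% of control arrays and 93.75% of ISO arrays.

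Snai3, a zinc finger repressor of the Snail family, had the widest fall. Its level was 6.50, 7.93 and 9.36 (lowest, median and highest) in control hearts and 5.71, 6.52 and 7.54 in ISO hearts, and it fell by 1.43 log2 units (SE 0.22, adjusted p = 0.0264). BXD-40/TyJ had a difference of -3.05 and BXD-5/TyJ one of 0.01, the only strain not lower. In the agreeing pairs the mean difference was -1.73 (adjusted p = 0.0107) and all 9 were lower. Rasgrp3, an exchange factor that activates Ras and Rap at diacylglycerol-rich membranes, ranged from 7.32 to 8.39 in control hearts and from 6.44 to 7.56 in ISO hearts. Its difference of -0.83 (SE 0.09) had the smallest adjusted p of the whole table, 0.00948. Rasgrp3 was lower in all 11 strain averages and all 9 agreeing pairs. In the BXD-40/TyJ pair on BeadChip 4, which is not an agreeing pair, it was at 0.17.

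Both Tmod4 and Ky are muscle proteins. Tmod4, which caps actin filaments in skeletal muscle, went from a median of 9.90 to 9.39 (mean difference -0.68, SE 0.12, adjusted p = 0.0463), and Ky, a peptidase needed for muscle growth, from 10.20 to 9.44 (-0.77, SE 0.12, adjusted p = 0.0282). Ppp1r9a, which encodes the actin-binding protein neurabin, differed by -0.66, and Sh3rf2, a relative of the scaffold and ubiquitin ligase POSH, by -0.74, both lower in 11 of 11 strains. Cep97 (-0.68), a cap protein of centrioles, and Nup210 (-0.60), a protein of the nuclear pore, also fell in every strain average. The BXD-40/TyJ pairs on BeadChips 4 and 15 were at -0.32 and 0.09 for Cep97, and at -1.09 and 0.01 for Ppp1r9a. Xntrpc (-1.03), Bex4 (-0.71), Pkdcc (-0.69), a secreted kinase, and Zfp979 (-0.63) completed the named falls, with adjusted p from 0.033 to 0.0498. Over the agreeing pairs Snai3, Rasgrp3 and Ky passed the thresholds and the other 9 falls kept their direction with adjusted p between 0.0505 and 0.134. A second probe of Tmod4 passed in both sets, at -0.66 (adjusted p = 0.022) over the strains and -0.65 (adjusted p = 0.0204) over the agreeing pairs.

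**Figure D2:**
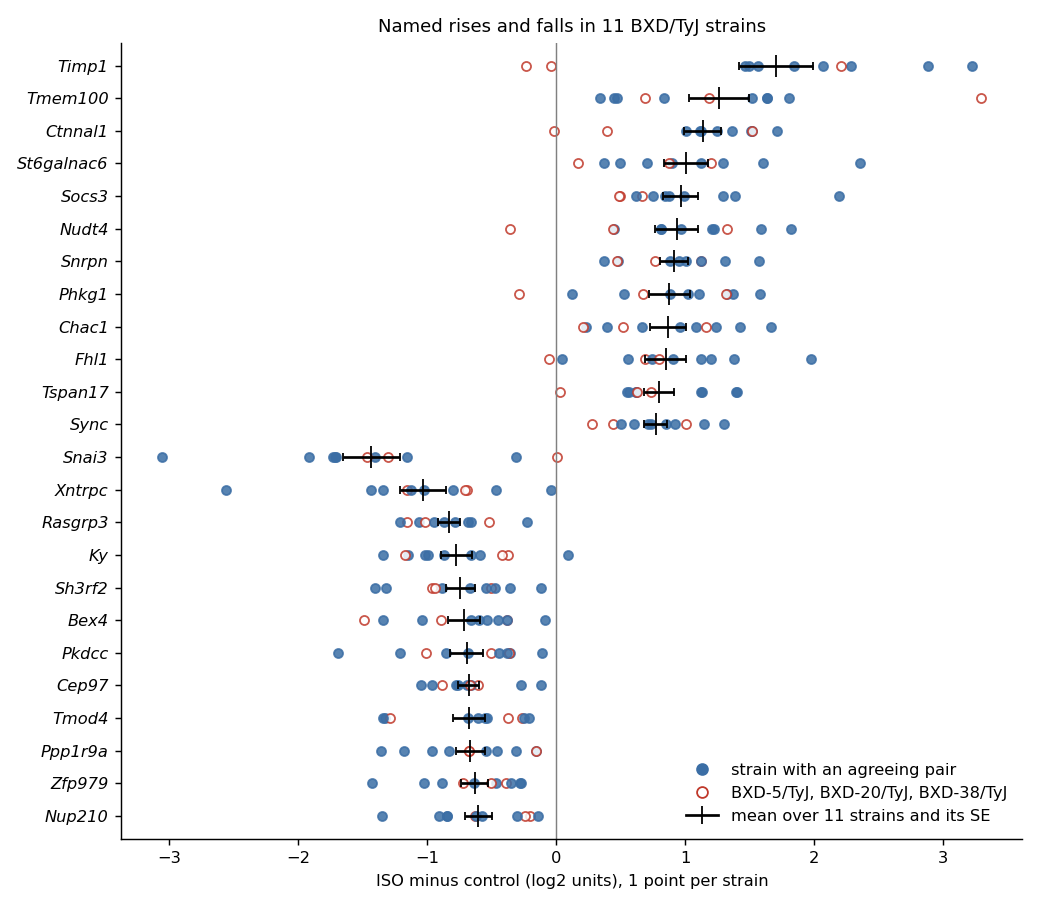
ISO minus control difference in log2 units (horizontal axis) of the 24 named genes in each of 11 BXD/TyJ strains. Filled points are strains that have an agreeing pair, and open points are BXD-5/TyJ, BXD-20/TyJ and BXD-38/TyJ. For BXD-32/TyJ, BXD-39/TyJ and BXD-40/TyJ the points are averages over repeat arrays that differ at the two-level probes. Black bars are the mean and its SE over the 11 strains. The 2 strains at or below 0 for Timp1 are both open points, as is BXD-38/TyJ at 2.21.

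**Figure D3:**
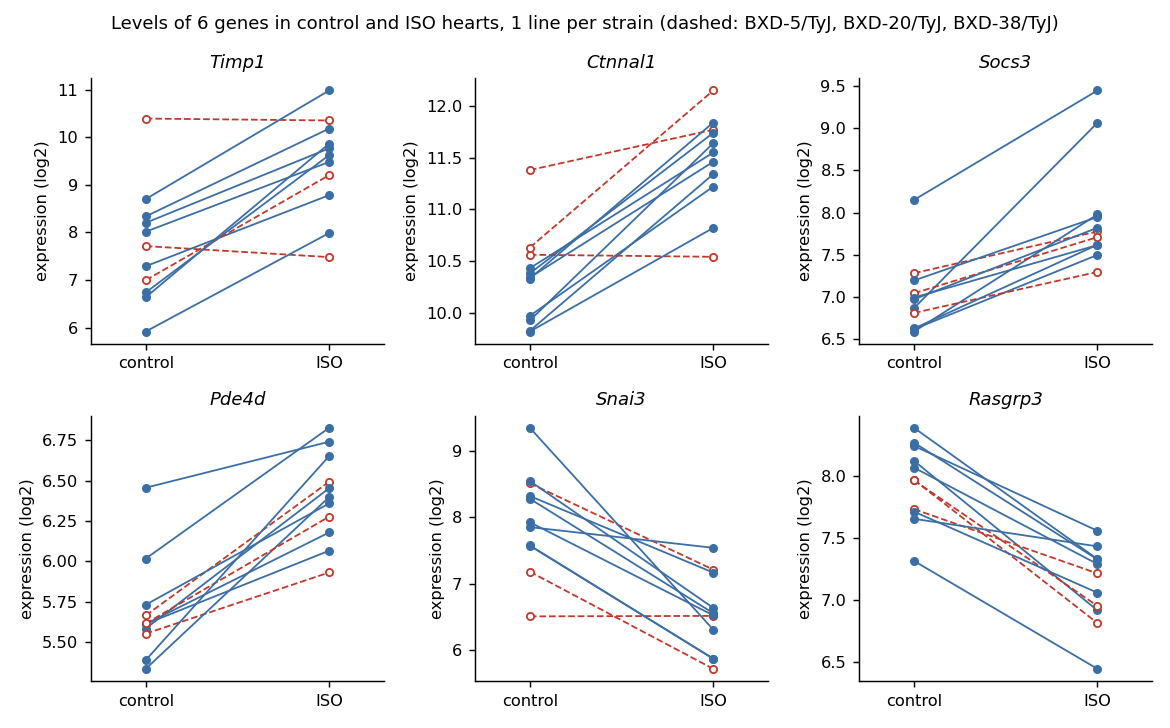
Log2 expression level of 6 genes in control and ISO hearts, with a line for each of 11 BXD/TyJ strains (dashed for BXD-5/TyJ, BXD-20/TyJ and BXD-38/TyJ). Timp1, Ctnnal1, Socs3 and Pde4d move up and Snai3 and Rasgrp3 down in most or all strains, while the strains keep different levels within each group.

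The named genes show 2 kinds of spread. In the plot of differences most points for a gene lie on 1 side of 0, whereas in the plot of levels the control value of 1 strain often exceeds the ISO value of another. Without pairing by strain limma called 0 probes over the same 11 strains, with 1788 at an unadjusted p under 0.05. The open point of BXD-20/TyJ is the lowest for Timp1, Ctnnal1, Nudt4 and Phkg1, while that of BXD-38/TyJ is among the higher ones for Ctnnal1 (1.52).

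The agreeing pairs called further genes, and those named here were chosen after their values were seen. Dct, an enzyme of melanin synthesis, differed by 2.45 (SE 0.24, adjusted p = 0.00312) and Serpina3n, a secreted protease inhibitor of the acute phase, by 2.40 (SE 0.24, adjusted p = 0.00312). Over the 11 labelled strains their mean differences were 1.79 (adjusted p = 0.064) and 1.70 (adjusted p = 0.087), with BXD-5/TyJ at -1.23 and -1.58. Sfrp1 encodes a secreted antagonist of Wnt ligands. It rose by 0.78 (adjusted p = 0.0405) over the agreeing pairs and had a mean of -0.19 over the 11 strains, among which BXD-5/TyJ was at -4.04. Among the genes lower in agreeing pairs were Phlda1 (-1.13, adjusted p = 0.00396), Acot1, an acyl-CoA thioesterase (-1.11, adjusted p = 0.0212), Ramp1, an accessory protein of receptors for calcitonin-type peptides (-0.97, adjusted p = 0.0297), and Fbp2, the muscle form of fructose bisphosphatase (-0.89, adjusted p = 0.0321).

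The β-adrenergic list holds 36 genes of receptors, G proteins, cyclases, phosphodiesterases, kinases and regulators, of which 30 were measured. Over the 11 strains 1 passed upward and 0 downward, 12 were higher and 18 lower, and the median difference was -0.04, against -0.01 over all 25697 probes, of which 12135 were higher. The member that passed was Pde4d, a phosphodiesterase that breaks down cyclic AMP near β-adrenergic receptors. It measured 5.33, 5.61 and 6.46 (lowest, median and highest) in control hearts and 5.93, 6.40 and 6.83 in ISO hearts, and rose by 0.71 (SE 0.09, 1.64-fold, adjusted p = 0.0102) in 11 of 11 strains and by 0.72 (adjusted p = 0.0205) in 9 of 9 agreeing pairs.

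Upstream in the pathway no member passed. Adrb1, the main β-adrenergic receptor of cardiomyocytes, was measured by a probe whose name was taken from the study's own annotation. It ranged from 4.37 to 6.82 in control and from 4.44 to 6.28 in ISO hearts, with a mean difference of 0.01 (SE 0.11, adjusted p = 0.969). In BXD-5/TyJ, BXD-11/TyJ, BXD-12/TyJ and BXD-20/TyJ, on BeadChips 22 and 24, its control level was 4.37 to 4.62. It was 4.63 in BXD-39/TyJ and 5.89 to 6.82 in the other strains. The lower values lie under the median probe of an array (4.99 to 5.01), so a fall there could hardly be seen. Gnas, the stimulatory G protein α subunit, differed by 0.58 (adjusted p = 0.28), Gnai2, an inhibitory α subunit, by 0.13 (adjusted p = 0.487), and Gnb3, a β subunit, by -0.74 (adjusted p = 0.218), the last lower in 9 of 11 strains. The cyclase Adcy6 differed by -0.21 and Adcy4 by -0.44 (adjusted p = 0.391 and 0.182). Grk5, a kinase that desensitizes the receptors, had the widest difference of the list, 0.76, but with an adjusted p of 0.161, and 0.0945 over the agreeing pairs. The catalytic kinase subunit Prkaca (-0.04) and the regulatory subunit Prkar1a lay near 0.

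Genes of the extracellular matrix were higher more often than lower. In the list of matrix proteases and inhibitors 13 of 22 measured members were higher with a median of 0.11, and Timp1 was the 1 member of that list to pass over 11 strains. The agreeing pairs added Serpina3n, Serping1, an inhibitor of complement C1 (0.50, adjusted p = 0.0297), and Mmp2, a gelatinase (0.62, adjusted p = 0.0321). Among collagens and collagen processing 17 of 27 were higher with a median of 0.14 and none passed. Col3a1 (0.76, adjusted p = 0.0901), Pcolce2 (0.84, adjusted p = 0.0895) and Lox, which crosslinks collagen (1.99-fold, adjusted p = 0.122), were each higher in 10 of 11 strains. Col1a1, a chain of the main fibrillar collagen, was at medians of 8.60 and 9.34, with a mean difference of 0.56 (adjusted p = 0.176) over the strains and 0.76 (adjusted p = 0.0436) over the agreeing pairs. Of the matricellular proteins, proteoglycans and microfibrils 22 of 29 were higher, with a median of 0.06 over the strains and 0.29 over the agreeing pairs, where Mfap4 passed (0.95, adjusted p = 0.0212). Sparc, a collagen-binding matricellular protein, is counted there by its brighter probe (0.29, adjusted p = 0.173). A second Sparc probe was called over the 11 strains, with medians of 10.66 and 11.30 and a rise of 0.69 (adjusted p = 0.022, higher in 10 strains), and did not pass over the agreeing pairs (0.51, adjusted p = 0.0651). For TGF-β and activin signaling the median was 0.05, and 15 of 25 were higher with none called.

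Fibroblast markers, which share Col1a1, Col1a2, Col3a1, Dcn, Lum and Mfap5 with these lists, were also higher more often than lower, with none called over the 11 strains. All 12 were detected, 10 were higher over the 11 strains with a median of 0.38, and all 12 were higher over the agreeing pairs with a median of 0.55. The mean level of the list ranged from 8.83 to 9.73 in control hearts and from 8.99 to 9.88 in ISO hearts. In bulk tissue more cells of a type and more RNA per cell cannot be told apart, and the part of fibroblast number in the matrix values was not tested. Myofibroblast markers, of which 5 of 10 measured were detected, had a median of 0.04 with 8 higher.

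Fetal, hypertrophy and contractile genes had list medians near 0. Of 19 measured fetal and hypertrophy genes Fhl1 passed, 8 were higher, and the median was -0.01. Nppa and Nppb, the natriuretic peptides, differed by -0.10 (adjusted p = 0.877) and 0.20 (adjusted p = 0.779). Myh7, the fetal myosin heavy chain, ranged from 4.83 to 8.70 in control and from 5.37 to 8.96 in ISO hearts with a mean difference of -0.09 (SE 0.30, adjusted p = 0.929), higher in 6 of 11 strains. Sarcomere and Z-disc genes had a median of -0.01 and none of 21 passed, although Myom1, a crosslinker of the M-band, was lower in 11 of 11 strains (-0.38, adjusted p = 0.0627). Among calcium cycling and ion channel genes none of 25 passed. Hrc, which buffers calcium inside the sarcoplasmic reticulum, was lower in all 11 (-0.42, adjusted p = 0.0538), and Kcnq1, a potassium channel, rose by 0.63 (adjusted p = 0.0137) over the agreeing pairs alone.

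In metabolism no gene of the lists passed over the 11 strains. For fatty acid oxidation and PPAR targets 15 of 27 were lower with a median of -0.02. Cpt2, a carnitine acyltransferase of the inner mitochondrial membrane, was lower in 11 of 11 strains (-0.29, adjusted p = 0.0538), and Acot1 in 9 (-0.91, adjusted p = 0.0531). Glycolysis and glucose use leaned upward, with 18 of 23 higher and a median of 0.16. Eno3, the muscle enolase, was higher in 10 strains (0.26, adjusted p = 0.0627), and Pdhb and Pdk1, of the pyruvate dehydrogenase system, were higher in 11 of 11 (0.66 and 0.46, adjusted p = 0.228 and 0.162). Slc2a1, a glucose transporter, rose by 0.40 (adjusted p = 0.0404) over the agreeing pairs. In the TCA cycle and branched-chain amino acid list Bdh1, which interconverts ketone bodies, rose over the agreeing pairs (0.76, adjusted p = 0.0212). The 35 genes of the respiratory chain and ATP synthase had a median of -0.02.

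Stress and immune lists were called rarely or not at all. Chac1 was the 1 endoplasmic reticulum stress gene of 21 to pass, and the list median was 0.11. Of 20 immediate early genes none passed, with Junb at 0.50 (adjusted p = 0.086, higher in 10 strains). Complement and acute phase genes had a median of 0.11 with 10 of 14 higher. Chemokines and cytokine receptors had 18 of 29 higher, and Cxcl9, a chemokine induced by interferon-γ, was lower in 9 strains (-1.01, adjusted p = 0.112). Interferon-stimulated genes were lower in 14 of 20 with a median of -0.28, and Rsad2, an antiviral enzyme of that set, was at medians of 9.89 and 9.08 (-0.79, adjusted p = 0.0709). The list median was -1.18 in BXD-14/TyJ, whose control heart also had the highest mean level of the list. Cell cycle (median -0.02) and circadian clock genes (-0.04) had no member that passed. The 9 measured transcripts known to differ between C57BL/6J and DBA/2J had a median of -0.08.

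Macrophage markers were higher in 19 of 29 with a median of 0.08, and their mean level ranged from 6.65 to 8.21 in control and from 6.78 to 8.17 in ISO hearts. None passed over the strains, and over the agreeing pairs Clec4d, a C-type lectin receptor of myeloid cells, rose by 1.65 (adjusted p = 0.0178) from a level detected on 18.75% of control arrays, and Cd83 fell by 0.63 (adjusted p = 0.0469). Lgals3, which encodes galectin-3, a lectin of activated macrophages, varied far more. It ranged from 6.79 to 13.07 in control hearts and from 7.26 to 12.23 in ISO hearts. Its mean difference was 1.12 (SE 0.60, adjusted p = 0.407), from -4.03 in BXD-5/TyJ to 4.22 in BXD-12/TyJ. Over the agreeing pairs, which leave BXD-5/TyJ out, it was 1.86 (adjusted p = 0.0945), higher in 8 of 9. Gpnmb, a glycoprotein of macrophages and pigment cells, ran from -7.19 in BXD-5/TyJ to 7.41 in BXD-12/TyJ, with a mean of 1.26 (adjusted p = 0.65) over the strains and 2.88 (adjusted p = 0.184) over the agreeing pairs. Its control level in BXD-5/TyJ was 14.38, against 7.27 at most in the control hearts of the other 10 strains. DBA/2J is known to carry a nonsense allele of Gpnmb.

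Endothelial markers were lower in 10 of 11 measured genes, with a median of -0.23 and none called, and 0 of 11 were higher over the agreeing pairs (median -0.17). Emcn (-0.27, adjusted p = 0.193) and Tie1 (-0.39, adjusted p = 0.182) are 2 of them, both surface proteins of endothelium, and Tmem100, which rose, is known from endothelium too. By strain the endothelial list median was above 0 in 5 of 11, from -0.68 in BXD-39/TyJ to 0.19 in BXD-38/TyJ. In BXD/RwwJ strains it was 0.03. Smooth muscle and pericyte markers had a median of 0.12 with 6 of 10 higher. Lymphocyte markers were at the floor of the scale, with 1 of 10 detected. Adipocyte markers had a median of -0.06, but 1.15 in BXD-5/TyJ, and epicardial and erythroid lists had medians of 0.07 and 0.02.

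Genes of other muscle types separated single strains rather than the treatments. The mean level of the fast skeletal muscle list was 7.89 in the control heart of BXD-5/TyJ and 6.98 in that of BXD-20/TyJ, against 5.15 to 5.67 in the other 9 control hearts and 4.84 to 5.36 in all 11 ISO hearts. Atp2a1, the calcium pump of fast muscle, reached 10.04 in the control heart of BXD-5/TyJ against a median of 5.43. The list median was -3.47 in BXD-5/TyJ and -2.32 in BXD-20/TyJ, -0.64 over the 11 strains and -0.18 over the agreeing pairs, which leave both strains out. Myh1, Myh4 and Myh8, the fast and perinatal skeletal myosins, stayed between 4.48 and 4.73 at the median over the strains. That median does not show their level in BXD-5/TyJ or BXD-20/TyJ. The part of skeletal muscle RNA in other values of these hearts was not tested.

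Atrial markers spread in both directions. Sln, a small regulator of the calcium pump in atria, ranged from 4.43 to 12.47 in control and from 4.37 to 11.64 in ISO hearts, with differences from -5.43 in BXD-20/TyJ to 5.95 in BXD-32/TyJ and a mean of -0.53 (SE 0.93, adjusted p = 0.844). Myl4, the atrial essential light chain, ran from -4.27 to 4.33 and Mybphl, a myosin-binding protein of atria, from -4.01 to 4.33, with the same strains at the ends. The median of the 8 atrial markers was -1.09 in BXD-20/TyJ and 1.38 in BXD-32/TyJ, and -0.13 over the strains. The part of atrial tissue in the dissected ventricles was not tested.

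**Figure D4:**
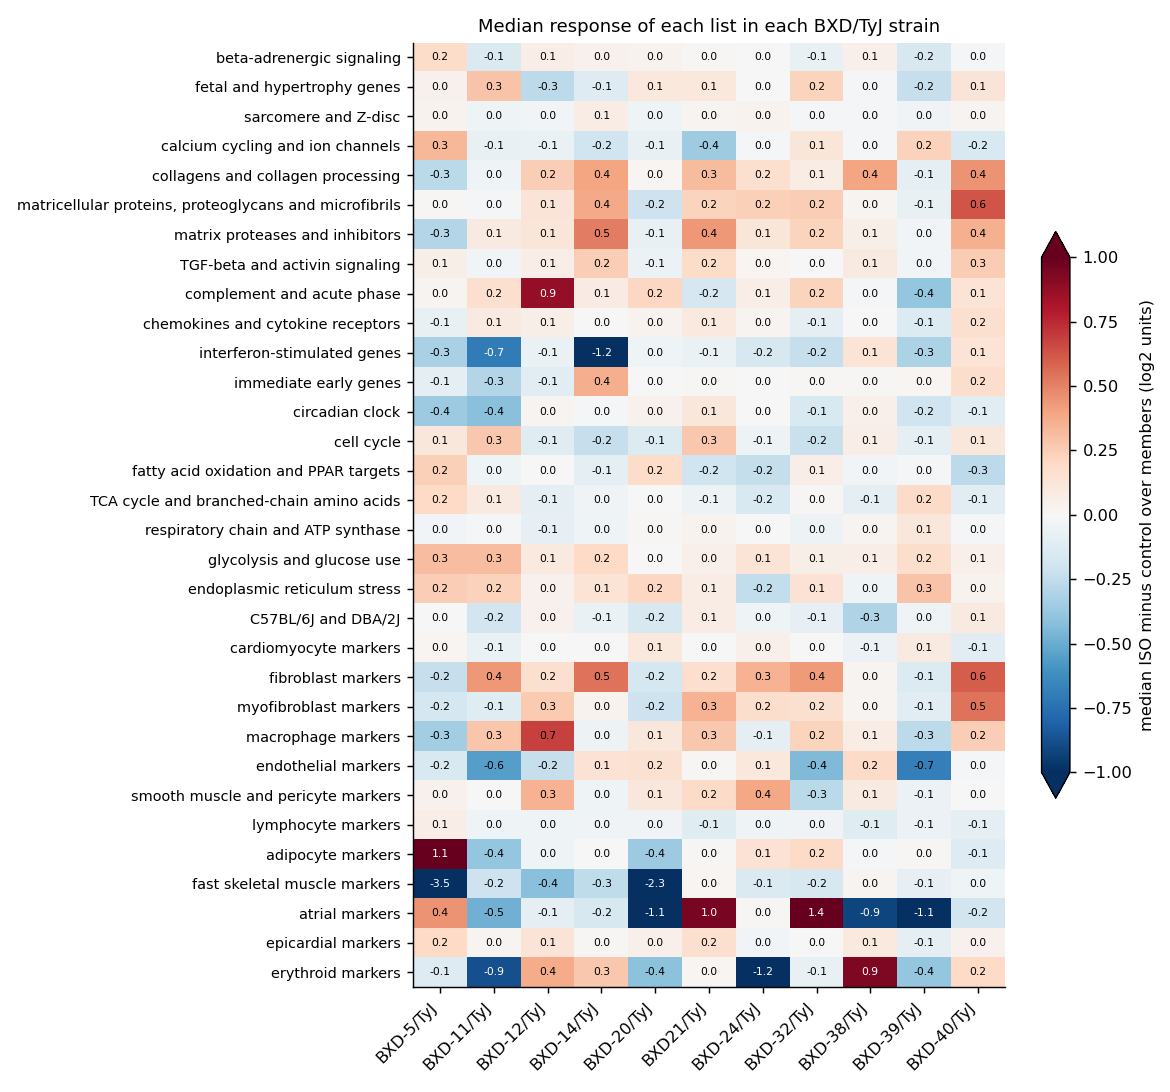
Median ISO minus control difference over the measured members (colour, log2 units) of the 20 gene lists and 12 marker lists (rows) in each of 11 BXD/TyJ strains (columns). The fast skeletal muscle row is at -3.5 in BXD-5/TyJ and -2.3 in BXD-20/TyJ, the atrial row runs from -1.1 to 1.4, and the fibroblast row lies above 0 in 8 of 11 strains.

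The heat map of list medians shows how single strains stood apart. Fibroblast and collagen medians were highest in BXD-40/TyJ (0.61 and 0.45) and lowest in BXD-5/TyJ (-0.23 and -0.27). The macrophage median was highest in BXD-12/TyJ at 0.69 and lowest in BXD-5/TyJ at -0.35. For glycolysis every strain was at or above 0, the highest being BXD-11/TyJ at 0.31. Among single genes, the widest spreads of the difference over the strains were in Gpnmb, Sln, H2-Ea, Sspn, Mybphl, Abhd16a, Myl4 and Lrrc2, a set that holds two-level transcripts, atrial genes and a macrophage gene. The probes of Sspn, Abhd16a, Lrrc2 and H2-Ea are among the 99 that define the agreeing pairs, so their values there are fixed by the selection. Over the labelled strains Sspn reached 8.50 and H2-Ea -7.07, both in BXD-38/TyJ.

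The spread of the differences over probes also varied by strain. It includes array noise, for which there is no separate estimate, and averaging of repeat arrays (BXD-32/TyJ, BXD-40/TyJ and the controls of BXD-39/TyJ) lowers that noise. Over 11942 detected probes the SD was 0.33 in BXD-24/TyJ and 0.38 in BXD-40/TyJ, against 0.88 in BXD-11/TyJ, 0.86 in BXD-5/TyJ and 0.68 in BXD-39/TyJ. BXD-11/TyJ has an agreeing pair, whereas the value of BXD-39/TyJ includes its second control, which differs at 43 of the 99 probes from the ISO array. The differences of BXD-32/TyJ on its separate BeadChips correlated at r = 0.0393 across these probes, and those of BXD-40/TyJ at 0.208. Between pairs of different strains r was 0.0863 at the median on different BeadChips (65 comparisons, -0.094 to 0.695) and 0.229 on the same BeadChip (11 comparisons, 0.0439 to 0.546). Across BeadChips the highest r included those of BXD-11/TyJ with BXD-32/TyJ on BeadChip 4 (0.695), BXD-5/TyJ (0.548) and BXD-39/TyJ on BeadChip 4 (0.446). That BXD-32/TyJ pair and BXD-5/TyJ were at 0.519. What these pairs share was not tested. All the r values are correlations across probes, which are not independent, and arrays of a BeadChip share their hybridization. The repeat pairs of a label lay within the range of pairs of unlike strains. Within the 3 groups of BeadChips that the leading digits of the slide numbers form, limma called 0 probes in the first (4 pairs, 3247 at an unadjusted p under 0.05), 142 in the second (5 pairs) and 0 in the third (4 pairs, 1951 at an unadjusted p under 0.05).

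The BXD/RwwJ strains, a newer set from the same parents with 22 paired strains all on the second group of BeadChips, served for comparison. There 810 probes were higher (3.15% of those tested) and 801 lower (3.12%). Of the 38 probes called higher in BXD/TyJ strains 31 were called higher in BXD/RwwJ strains and 37 had a positive difference, while 45.9% of all probes were higher there. Of the 38 called lower 23 were called lower and 37 were lower. These strain sets share no arrays, and the shared calls are 81.6% of the BXD/TyJ rises and 3.83% of the BXD/RwwJ rises. For the agreeing pairs 61 of 66 rises and 27 of 30 falls were called in BXD/RwwJ strains, and all 96 had the same direction. Timp1 rose by 2.22 there, Ctnnal1 by 1.23, Socs3 by 0.77 and Pde4d by 0.42, and Snai3 had a difference of -1.63.

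**Figure D5:**
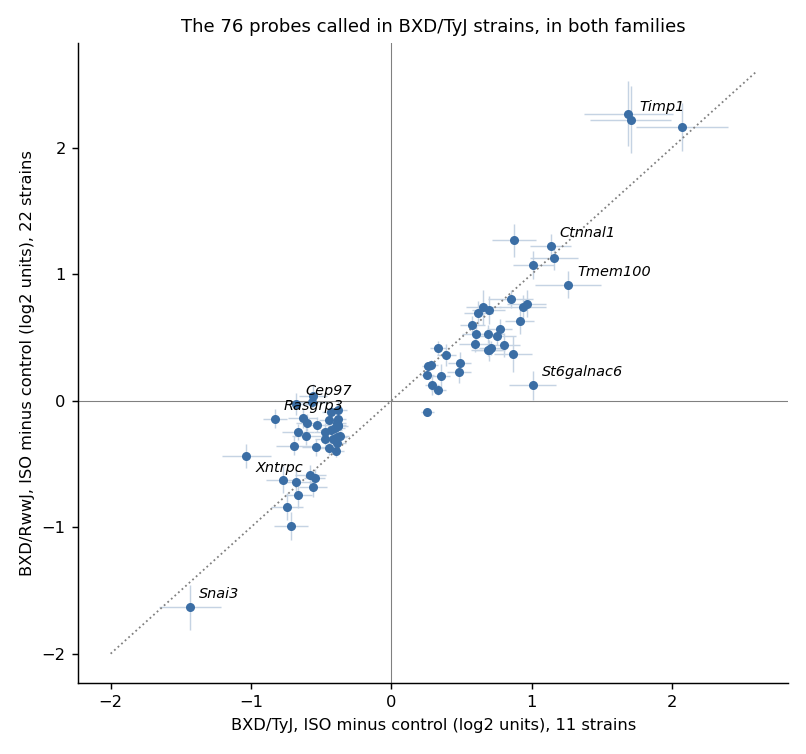
ISO minus control difference of the 76 probes called in BXD/TyJ strains (horizontal axis, 11 strains) against that in BXD/RwwJ strains (vertical axis, 22 strains), in log2 units with SE bars and a dotted line of equality. Of the 38 rises 37 and of the 38 falls 37 lie in the quadrants of equal sign, Rasgrp3, Cep97 and St6galnac6 lie near 0 on the vertical axis, and the probes were chosen on the horizontal axis.

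As the plot of both families shows, most of these probes differed in the same direction, and a few lay near 0 in BXD/RwwJ strains. The test of the difference between the families called 2 of 25697 probes, 1 in each direction (0.00389% each), with 4008 at an unadjusted p under 0.05. Rasgrp3 had a mean difference of -0.83 in BXD/TyJ and -0.14 (adjusted p = 0.3) in BXD/RwwJ strains, so that the responses differed by -0.69 (adjusted p = 0.0398). Nme2, a nucleoside diphosphate kinase, lay between 12.53 and 13.18 in control and between 12.81 and 13.42 in ISO hearts of BXD/TyJ strains. It was higher in 11 of 11 strain averages, and at -0.11 in the BXD-40/TyJ pair on BeadChip 15. Its mean difference was 0.26 against -0.09 in BXD/RwwJ strains, and the responses differed by 0.35 (adjusted p = 0.00313). With the group of BeadChips as a covariate the differences were -0.52 and 0.31 and neither passed (adjusted p = 1 for both), and within the second group alone they were -0.44 and 0.20 (adjusted p = 1). With only agreeing pairs in the BXD/TyJ set they were -0.68 and 0.31 (adjusted p = 0.19 each). The call of Nme2 was kept without each of the 11 strains in turn, that of Rasgrp3 only without BXD-14/TyJ, BXD-24/TyJ, BXD-38/TyJ or BXD-40/TyJ.

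Against all 76 other paired strains of the series, 0 probes differed in response (0% in either direction, limma), with 1840 at an unadjusted p under 0.05 and a smallest adjusted p of 0.529. The smallest unadjusted p values among probes with a symbol were those of Impdh1, an enzyme of guanine nucleotide synthesis, and Traf4, an adaptor of receptor signaling. The Traf4 probe was detected on 43.75% of control and 0% of ISO arrays and the Impdh1 probe on 0% and 6.25%, so the size of either difference is measured against a level not above background. Outside the BXD strains 16 of 57 pairs on 1 BeadChip differed at more than 9 of the two-level probes, against 4 of 13 in BXD/TyJ. These probes were chosen in BXD/RwwJ arrays. The part of such pairs in the comparison with other strains was not tested.

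The parents gave single pairs of arrays and no test. C57BL/6J and DBA/2J had a control and ISO pair on each of 2 BeadChips. At the two-level transcripts control and ISO arrays differed at 36 and 0 probes for C57BL/6J and at 15 and 26 for DBA/2J. Between BeadChips, arrays labelled C57BL/6J differed at 47 probes in control and 53 in ISO hearts. Those labelled DBA/2J differed at 42 and 43. Which pair came from the labelled parent was not tested. In the C57BL/6J pair that differed at 0, 33 of the 38 probes called higher in BXD/TyJ strains were higher and 31 of the 38 called lower were lower, with Timp1 at 1.48, Ctnnal1 at 2.03 and Snai3 at -1.96. In the other C57BL/6J pair the counts were 17 and 19. In the DBA/2J pairs they were 29 and 23, and 29 and 31, with Timp1 at 1.90 and -0.28.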

How the data were processed

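Left ventricles were profiled on Illumina MouseRef-8 v2.0 BeadChips. The deposited log2 values came from the authors' neqc step in limma (background correction with negative controls, quantile normalization), and the deposited intensity and detection p-values from GenomeStudio 2010.3. The log2 table holds 25697 gene probes, of which 23979 carry 1 symbol, and 829 control probes of the intensity table were not used. The study's methods left out probes over sequence variants and some arrays, whereas all were kept here, so a genotype effect on hybridization remains in the levels. Depth is a matter of array number and signal only.

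Control and ISO differences were fitted with limma 3.58.1 in R 4.3.3, with the strain as block and thresholds of adjusted p under 0.05 and 0.2 log2 units, the study's own. In the pairing check, control and ISO arrays of a strain label deviated together in 11 of 11 strains (median r 0.564, against -0.0607 between strains). These include BXD-38/TyJ (0.617), BXD-20/TyJ (0.3) and BXD-5/TyJ (0.181), whose arrays differed at the two-level probes. Partners also shared a BeadChip, so the check cannot tell strain from BeadChip and does not show that the labels are right. The number of mice behind an array is not given in the labels. The p-values over the 11 strains measure the spread between strains. Those over the agreeing pairs measure the spread between pairs, where BXD-32/TyJ enters with a pair on each of its BeadChips. With these pairs averaged by strain the smallest adjusted p was 0.000158 (limma), against 1.99e-05. The script was tested on simulated data. The strains and the 20 gene and 12 marker lists were chosen with earlier results of these data known. Genes named were the 12 largest rises and 12 largest falls passing both thresholds in the same direction in at least 9 strains, up to 4 called members of each list (or the 2 of smallest p), the leading probes of the comparisons with other strains, the 8 detected probes of widest spread, and genes of the study's interest. A gene was measured by its probe of highest mean. Alternatives covered normalization, filters, blocks, BeadChips and leaving out strains. Promoter windows came from RefSeq (GRCm38.p6).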

Additional observations from a re-analysis of the deposited data

Results flagged for a closer look

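The ISO response of Rasgrp3 differed between BXD/TyJ and BXD/RwwJ strains by -0.687 log2 units (limma, adjusted p = 0.0398), which called attention to it as a difference between strain families. Its adjusted p was between 0.00867 and 0.152 when each BXD/TyJ strain was left out in turn, and 1 with the group of BeadChips as a covariate.

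Nme2 was picked out in the same way, with a difference of 0.35 log2 units (adjusted p = 0.00313, between 0.00197 and 0.0132 when each strain was left out) and an adjusted p of 1 with the group of BeadChips as a covariate. All BXD/RwwJ pairs lay in the second group of BeadChips. The part of BeadChip or strain label in these differences was not tested beyond the values given.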

How the results depend on the processing

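The count of 76 probes called over the 11 strains depended on the processing, and the cause was not tested. It was 178 with no background correction, 32 with median scaling, 184 with only detected probes, 26 with the first array of a strain and treatment only, 238 with strain and BeadChip as blocks of single arrays, 170 without BeadChip 24, 0 in the first, 142 in the second and 0 in the third group of BeadChips. With no replicate block it was 0 over the 11 strains (1788 at an unadjusted p under 0.05) and 11 over all 16 strains, 10 of these higher. Partners of a strain also shared a BeadChip, and the part of strain or BeadChip in this drop was not tested. The share of higher calls was 50% as fitted and 68.8% over the agreeing pairs (67% with pairs averaged by strain, 88 calls), an alternative chosen after seeing the data. Leaving out each strain gave 7 (without BXD-40/TyJ) to 169 (without BXD-20/TyJ) calls, and the count moved by over 1.5 times without every strain but BXD-5/TyJ: 37 without BXD-11/TyJ, 20 without BXD-12/TyJ, 9 without BXD-14/TyJ, 39 without BXD-24/TyJ, 8 without BXD-32/TyJ, 21 without BXD-38/TyJ, 33 without BXD-39/TyJ and 37 without BXD21/TyJ. For the agreeing pairs the range was 17 (without BXD-14/TyJ) to 77 (without BXD-11/TyJ). Against BXD/RwwJ strains the 2 calls became 0 with the BeadChip group as a covariate, 0 in the second group alone, 0 with agreeing pairs, 1 without BeadChips 12, 19, 23, 24 and 25, and 1 to 6 with each strain left out, 6 without BXD-24/TyJ. Against all other strains the count was 0 under every alternative run. Over the 102 named probes and 26 settings no called difference reversed. In 371 combinations of probe and setting a call was lost, and in 56 one was gained. Only the 28 named probes called over the 11 strains could lose a call, and 15 of them were also called over the agreeing pairs. The number of arrays limits precision, and low probes such as those of Impdh1, Traf4 and Clec4d are near background in a group. The Adrb1 probe was low in some of the strains.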
